A study of Mus musculus with 8 samples.

Results

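The SLC25 proteins carry nucleotides, phosphate, keto acids, amino acids, cofactors and metals across mitochondrial membranes. Their genes were followed in hearts of mice that lack a conserved enhancer of Actn2, the gene of the sarcomeric cross-linker alpha-actinin 2. Members were taken by symbol alone, as every row named Slc25a followed by a number. This gave 47 of 24516 genes, and 43 of the 47 held enough counts to be tested, among 15075 tested genes. The measurement was bulk RNA sequencing of hearts at postnatal day 40, called adult in the labels. There were 3 hearts homozygous for the enhancer deletion made with CRISPR/Cas9, 3 heterozygous hearts and 2 wild-type (WT) hearts, 1 library each, all from a shared litter. The labels give no strain, sex or founder line and do not say whether the deletion line rests on 1 founder.

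As background, mitochondrial carriers of this family sit mostly in the inner membrane, and each is built from repeated modules of paired membrane helices around a substrate path. In heart muscle, the ADP/ATP carrier exports the ATP that contraction uses, and the phosphate carrier returns phosphate for its synthesis. The aspartate/glutamate and oxoglutarate carriers form the membrane part of the malate-aspartate shuttle, and the carnitine-acylcarnitine carrier brings in fatty acids for oxidation. Other members supply cofactors, pyrimidine nucleotides, iron or glutathione to the matrix.

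Libraries held 22230090 to 55902737 counts. Values below are counts per 1000000 library counts (CPM) after TMM scaling, a correction for library composition. Wild type 2 stood apart from the other libraries: on PC1 of the most variable genes, with 35.9% of the variance, it scored 61.4, and the other 7 libraries scored -14.2 to 10.8. Actn2 was at 1611 to 2115 CPM in homozygous hearts and 1546 to 1693 CPM in heterozygous hearts, against 2187 and 2703 CPM in WT hearts. Xist, expressed in female cells, was at 567 to 1220 CPM in 4 libraries and at 1.74 to 6.22 CPM in the other 4. Every genotype held both kinds. Of the WT hearts, wild type 1 was at 1.74 CPM and wild type 2 at 567 CPM. A fit that leaves out 1 of these 2 keeps only 1 kind in WT and both kinds in the deletion genotypes. Sex and library cannot be told apart there. The 10 cardiomyocyte markers summed to 79350 to 86470 CPM in homozygous and 79770 to 85510 CPM in heterozygous hearts, against 93590 and 110300 CPM in WT hearts. The 6 atrial markers summed to 128 to 384 CPM in homozygous and 112 to 436 CPM in heterozygous hearts, against 352 and 600.3 CPM in WT hearts, and the 6 endothelial markers to 678 to 877 CPM and 669.8 to 810.0 CPM, against 963 and 966 CPM. By edgeR's test, described below, 2 of the 10 cardiomyocyte markers rose and 2 fell in homozygous hearts. In heterozygous hearts 2 rose and 3 fell. In each deletion genotype 4 of the 6 atrial and 2 of the 6 endothelial markers fell, and 0 rose. Of the 6 smooth muscle and pericyte markers, 3 fell in homozygous and 4 in heterozygous hearts, and 0 rose. Of the 5 macrophage markers, 2 rose and 1 fell in each deletion genotype, and 0 of the 6 fibroblast markers were called. Of all tested genes, 15.3% rose and 12.4% fell in homozygous hearts, and 15.2% and 12.8% in heterozygous hearts. The sums thus do not stand for every marker. The part of these marker shifts in the results on carriers was not tested. In bulk tissue, fewer cells of a type and less RNA per cell cannot be told apart.

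To show the regulatory sequence of members that moved, 4 promoter windows are given, each 250 bases long, 5′ to 3′ on the gene's strand and ending just before a RefSeq transcription start (GRCm38.p6). Slc25a16 is shown for the largest called rise, Slc25a36 because its window holds all 4 motifs searched, and Slc25a25 for the largest called fall, at the start whose window holds a cAMP response element. Slc25a1 is shown because it fell in both deletion genotypes. Capitals mark matches to these motifs. The cAMP response element was searched as TGACGTCA. The E-box was searched as CACGTG. The GC box was searched as GGGCGG, and the CCAAT box by its own letters. Both strands were searched, no motif contains another, and a match on the other strand reads as its reverse complement.
Slc25a16, chr10:62920383-62920632, plus strand: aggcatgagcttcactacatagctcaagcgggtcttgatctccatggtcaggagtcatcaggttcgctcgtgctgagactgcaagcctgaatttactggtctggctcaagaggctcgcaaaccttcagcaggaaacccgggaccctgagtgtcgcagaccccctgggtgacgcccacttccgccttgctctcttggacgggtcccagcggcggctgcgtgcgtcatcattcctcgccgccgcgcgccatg
Slc25a36, chr9:97111042-97111291, minus strand: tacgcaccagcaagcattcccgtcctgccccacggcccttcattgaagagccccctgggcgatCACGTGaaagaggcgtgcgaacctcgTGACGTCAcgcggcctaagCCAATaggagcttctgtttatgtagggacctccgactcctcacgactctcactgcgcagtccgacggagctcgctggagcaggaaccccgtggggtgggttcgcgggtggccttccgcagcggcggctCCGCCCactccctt
Slc25a25, internal start, chr2:32424067-32424316, minus strand: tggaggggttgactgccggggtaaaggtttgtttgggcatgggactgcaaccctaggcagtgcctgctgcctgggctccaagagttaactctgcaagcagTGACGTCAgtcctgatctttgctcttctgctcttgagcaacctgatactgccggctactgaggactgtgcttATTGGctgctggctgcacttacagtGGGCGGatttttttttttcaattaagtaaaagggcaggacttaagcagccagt
Slc25a1, chr16:17928220-17928469, minus strand: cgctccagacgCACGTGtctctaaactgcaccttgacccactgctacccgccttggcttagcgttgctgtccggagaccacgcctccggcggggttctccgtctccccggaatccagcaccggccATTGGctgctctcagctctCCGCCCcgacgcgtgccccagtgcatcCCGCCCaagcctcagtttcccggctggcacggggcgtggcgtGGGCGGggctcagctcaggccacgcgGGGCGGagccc

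The RefSeq table matched 33 of the 43 tested members, with 42 starts among them. A GC box was present in 73.8% of these 42 windows, in 54.8% of 14559 windows of all tested genes and in 32.7% of all 32851 windows. An E-box was present in 19.05% of the members' windows, 7.99% of those of tested genes and 6.02% of all. The CCAAT box stood in 47.6%, 34.5% and 33.8%, and the cAMP response element in 4.76%, 2.41% and 1.55%. For the members, the latter is only 2 of 42 windows, of Slc25a25 and Slc25a36. Windows of the same gene are not independent. The E-box was found in members that rose (Slc25a13, Slc25a36) and in a member that fell (Slc25a1). It was also found in members that did not pass the main test (Slc25a14, Slc25a15, Slc25a31, Slc25a33). The window of Slc25a16 held none of the 4 motifs. These are matches of letters in a window and show no binding.

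By level, the family was dominated by the ADP/ATP carrier of muscle. Slc25a4 made up 55.0 to 58.4% of all Slc25 CPM in homozygous hearts and 55.3 to 63.9% in heterozygous hearts, against 58.5 and 69.6% in WT hearts. All 47 members together held 1.001 to 1.115% of a homozygous library's counts and 1.019 to 1.196% of a heterozygous one's, against 1.148 and 1.282% in WT. Without Slc25a4, the summed level was 4358 to 4829 CPM in homozygous and 4195 to 4487 CPM in heterozygous hearts, against 4135 and 4598 CPM in WT hearts, so these ranges overlapped. Per kb of the longest coding transcript, the highest mean levels over all 8 hearts were those of Slc25a4 (3435 CPM per kb), the phosphate carrier Slc25a3 (1021), the oxoglutarate carrier Slc25a11 (300.2), the ADP/ATP carrier Slc25a5 (262) and Slc25a34 (130), which has no settled substrate. Next came the carnitine-acylcarnitine carrier Slc25a20 (82.4 CPM per kb) and Slc25a39 (74.3 CPM per kb), a carrier needed for mitochondrial glutathione. In the order of levels, the ranges over libraries overlapped between Slc25a11 (271.6 to 339 CPM per kb) and Slc25a5 (229.8 to 314), and among Slc25a34 (72.3 to 163), Slc25a20 (63.8 to 101) and Slc25a39 (60.8 to 101).

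**Figure D1:**
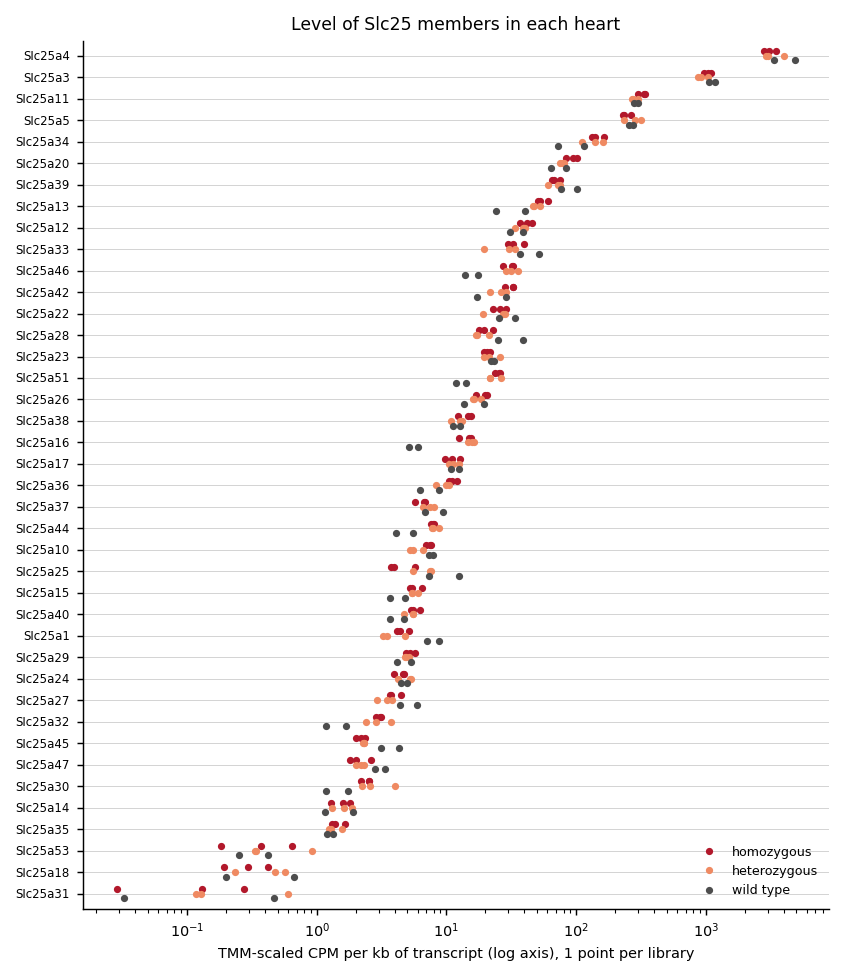
Level of 40 tested Slc25 members with a count in every library, in TMM-scaled CPM per kb of transcript on a log axis, ordered by mean; each point is 1 heart (homozygous, heterozygous or wild type). Slc25a4 lies highest, with a mean of 3435 CPM per kb, and the lowest members lie under 1 CPM per kb.

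Members moved in both directions and about as often as genes in general. In homozygous against wild-type hearts 7 of 43 members rose (16.3%, against 15.3% of all 15075 genes) and 4 fell (9.3%, against 12.4%). In heterozygous against wild-type hearts 7 rose (16.3%, against 15.2%) and 3 fell (6.98%, against 12.8%). Calls are from edgeR's quasi-likelihood test, with p-values adjusted by Benjamini-Hochberg over all genes and a threshold of 0.05. The members' median log2 fold change was 0.15 in homozygous and 0.06 in heterozygous hearts, against -0.03 and -0.03 over all genes. Both comparisons use the same WT libraries, so they are not independent. With 9 members called in both, 2 in homozygous and 1 in heterozygous hearts alone, 12 members were called in all. By separation of libraries, 13 members were higher in every homozygous than in any WT library and 9 lower, 30.2% and 20.9% of members against 27.6% and 27.2% of all genes. In heterozygous hearts 9 were higher in every library and 10 lower, 20.9% and 23.3% against 25.7% and 25.6%.

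**Figure D2:**
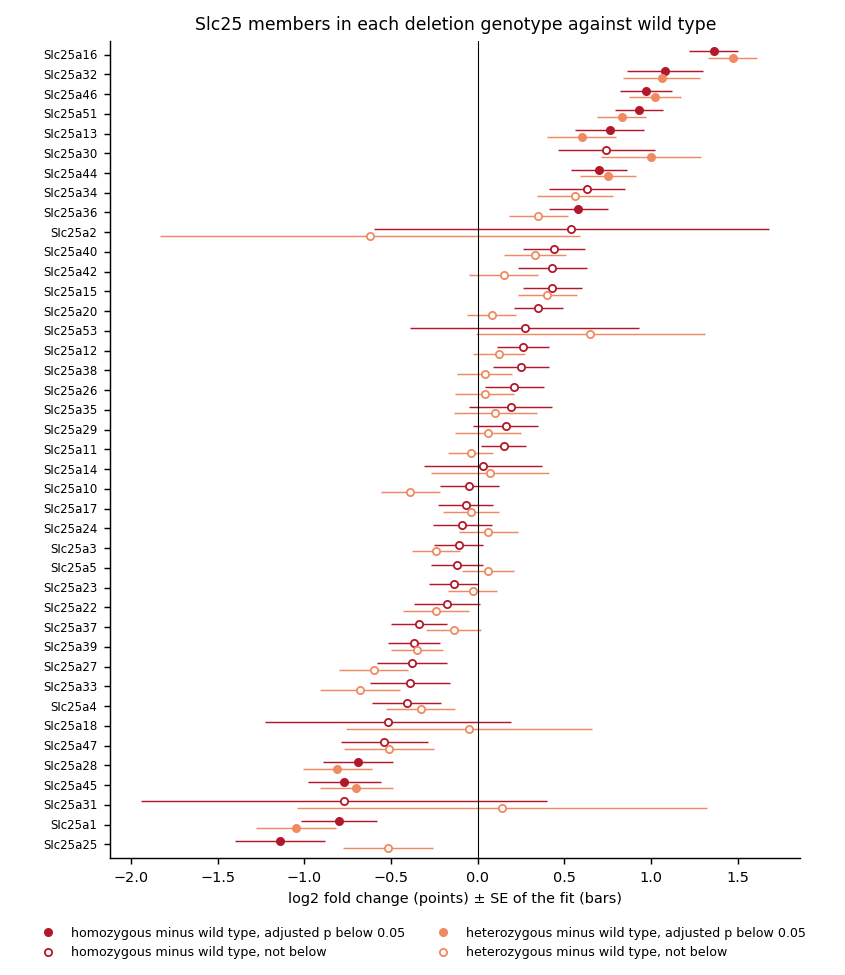
Log2 fold change of 41 tested members (points) with the SE of the fit (bars), homozygous minus wild type above and heterozygous minus wild type below in each row; filled points passed edgeR's test at an adjusted p below 0.05. Slc25a16 leads at 1.36 and 1.47, and Slc25a25 is lowest in homozygous hearts at -1.14. Slc25a43, with no count in wild type, is not drawn.

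The main energy carriers, those of ADP/ATP and phosphate, did not pass the main test. Slc25a4 (chromosome 8, 46206797 to 46211284, mm10), the ADP/ATP carrier of heart and muscle, was at 5892, 5392 and 6647 CPM in homozygous hearts and 7703, 5783 and 5559 CPM in heterozygous hearts, against 6471 and 9450 CPM in WT hearts. Wild type 2 was the highest library and the genotypes overlapped. It changed by -0.41 on the log2 scale (SE 0.20, adjusted p = 0.154) in homozygous and -0.33 (SE 0.20, adjusted p = 0.258) in heterozygous hearts. Without wild type 1 both values passed (-0.65 and -0.57, adjusted p = 0.0189 and 0.0368), and without wild type 2 they were -0.08 and 0.003. Slc25a5, the ADP/ATP carrier of most other tissues, was at 330, 285 and 291 CPM in homozygous and 389, 355 and 289 CPM in heterozygous hearts, against 316 and 342 CPM in WT hearts. Its genotypes overlapped, with log2 fold changes of -0.12 and 0.06 (adjusted p = 0.577 and 0.788). The level of Slc25a4 per kb was 11.5 to 14.7 times that of Slc25a5 in homozygous and 10.5 to 12.8 times in heterozygous hearts, against 13.2 and 17.8 times in WT hearts.

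Slc25a3, which imports phosphate and copper, was at 1770, 1553 and 1681 CPM in homozygous and 1411, 1485 and 1667 CPM in heterozygous hearts, against 1883 and 1717 CPM in WT hearts. All heterozygous libraries were below both WT libraries, and the homozygous ones overlapped with them. The log2 fold changes, -0.11 and -0.24, did not pass (adjusted p = 0.592 and 0.217). Slc25a31, an ADP/ATP carrier known from testis, was at 0.0611 to 1.27 CPM over all libraries, with log2 fold changes of -0.77 and 0.14 and an SE of 1.17 and 1.18.

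Among the ATP-Mg/phosphate exchangers, which set the matrix adenine nucleotide pool and respond to calcium, Slc25a25 fell in homozygous hearts. It was at 13.2, 20.1 and 13.8 CPM in homozygous and 19.4, 26.8 and 26.6 CPM in heterozygous hearts, against 25.8 and 43.8 CPM in WT hearts. All homozygous libraries were below both WT libraries, while the heterozygous ones overlapped with them. The means were 15.7 ± 3.83 CPM in homozygous (SD, n = 3) and 24.3 ± 4.20 CPM in heterozygous hearts (SD, n = 3), against 34.8 ± 12.8 CPM in WT hearts (SD, n = 2). The homozygous log2 fold change was -1.14 (SE 0.26, adjusted p = 0.00928), and the heterozygous one was -0.52 (SE 0.26, adjusted p = 0.161). Homozygous against heterozygous, Slc25a25 differed by -0.63, with an unadjusted p of 0.0228 and no call after adjustment. Leaving out wild type 2 ended the homozygous call (-0.68, adjusted p = 0.113), and leaving out wild type 1 brought in a heterozygous one (-0.84, adjusted p = 0.0239). The gene (chromosome 2, 32414487 to 32451445) shares 4.82% of its exonic bases with Naif1 on the opposite strand, which averaged 2.71 CPM. Slc25a23 and Slc25a24, the other exchangers tested, had log2 fold changes of -0.14 and -0.09 in homozygous and -0.03 and 0.06 in heterozygous hearts. Slc25a41, with 0 to 2 counts a library, and Slc25a54, with no count in any library, were not tested.

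Of the aspartate and glutamate carriers, Slc25a13 rose and Slc25a12 did not pass. Slc25a13 (citrin, chromosome 6, 6041218 to 6217173), an aspartate/glutamate carrier best known from liver, was at 190, 164 and 157 CPM in homozygous and 144, 165 and 149 CPM in heterozygous hearts, against 126 and 75.6 CPM in WT hearts. Both deletion genotypes lay above both WT libraries, and the WT libraries differed widely. On the log2 scale it rose by 0.76 (SE 0.20, adjusted p = 0.0172) in homozygous and 0.60 (SE 0.20, adjusted p = 0.0436) in heterozygous hearts. Leaving out homozygous 1 (0.67, adjusted p = 0.0589) or wild type 2 (0.47, adjusted p = 0.0656) ended the homozygous call, and without wild type 1 its value was 1.18. The heterozygous call was kept in only 1 of 8 fits that left out 1 library, the fit without wild type 1 (1.02, adjusted p = 0.000517); in the other 7 the adjusted p was 0.0542 to 0.208 and the value 0.31 to 0.67. It was also lost when total counts replaced TMM.

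Slc25a12 (aralar), the aspartate/glutamate carrier of heart, muscle and brain, was at 290, 236 and 267 CPM in homozygous and 249, 257 and 214 CPM in heterozygous hearts, against 246 and 196 CPM in WT hearts. Its genotypes overlapped (log2 fold changes 0.26 and 0.12, adjusted p = 0.239 and 0.594). The ratio of Slc25a13 to Slc25a12 counts, which was looked at after the values were seen, was 0.655, 0.697 and 0.591 in homozygous and 0.579, 0.643 and 0.694 in heterozygous hearts, against 0.513 and 0.386 in WT hearts. Every deletion library was above both WT libraries in this ratio. The glutamate carriers Slc25a22 and Slc25a18 had log2 fold changes of -0.18 and -0.52 in homozygous and -0.24 and -0.05 in heterozygous hearts, and neither passed. Slc25a18 averaged under 1 CPM in each genotype.

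Slc25a1, the citrate carrier that exports citrate for fatty acid and sterol synthesis, fell in both deletion genotypes. The gene (chromosome 16, 17925223 to 17928219) was at 6.99, 8.54 and 7.29 CPM in homozygous and 8.03, 5.76 and 5.44 CPM in heterozygous hearts, against 11.8 and 14.7 CPM in WT hearts. No deletion library reached either WT library. Means were 7.61 ± 0.821 CPM in homozygous (SD, n = 3) and 6.41 ± 1.41 CPM in heterozygous hearts (SD, n = 3), against 13.2 ± 2.10 CPM in WT hearts (SD, n = 2). On the log2 scale it fell by 0.80 in homozygous (SE 0.22, adjusted p = 0.0240) and by 1.05 in heterozygous hearts (SE 0.23, adjusted p = 0.00726). The homozygous call was lost without homozygous 1 (-0.74, adjusted p = 0.0786), homozygous 3 (-0.77, adjusted p = 0.0776) or wild type 2 (-0.59, adjusted p = 0.176), and the heterozygous one without wild type 2 (-0.85, adjusted p = 0.0538). A replicate block left a homozygous value of -0.73 (adjusted p = 0.0704). None of the 8 adipocyte markers was at 0 in all libraries. They summed to 26.8 to 32.9 CPM in homozygous and 23.4 to 33.98 CPM in heterozygous hearts, against 38.4 and 93.7 CPM in WT. Of the 3 that were tested, 2 fell in each deletion genotype, against 12.4% of all genes in homozygous and 12.8% in heterozygous hearts. The part of adipocyte markers in the fall of Slc25a1 was not tested.

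The other keto acid carriers did not pass the main test. Slc25a11, which exchanges oxoglutarate for malate, was at 580, 509 and 569 CPM in homozygous and 473, 465 and 516 CPM in heterozygous hearts, against 517 and 482 CPM in WT hearts. Its genotypes overlapped, with log2 fold changes of 0.15 and -0.04 (adjusted p = 0.432 and 0.830); 8.91% of its exonic bases overlap Rnf167 on the opposite strand. Slc25a10, the dicarboxylate carrier, was at 15.4, 14.05 and 15.02 CPM in homozygous and 10.6, 11.2 and 13.3 CPM in heterozygous hearts, against 15.96 and 14.7 CPM in WT hearts. Its heterozygous libraries were all below the WT ones. On the log2 scale the homozygous change was -0.05 (adjusted p = 0.852) and the heterozygous change -0.39 (adjusted p = 0.105). Homozygous against heterozygous, it differed by 0.34 with an unadjusted p of 0.0448. Slc25a21, the oxodicarboxylate carrier, had 0 to 8 counts in any library and was not tested.

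Among carriers of carnitine and amino acids, Slc25a44 rose and Slc25a45 fell. Slc25a44 (chromosome 3, 88410498 to 88425139) carries branched-chain amino acids in mouse brown fat. It was at 27.2, 28.4 and 28.7 CPM in homozygous and 31.3, 27.9 and 28.1 CPM in heterozygous hearts, against 19.9 and 14.6 CPM in WT hearts. The deletion libraries lay close together and above both WT libraries. Means were 28.1 ± 0.768 CPM in homozygous (SD, n = 3) and 29.1 ± 1.89 CPM in heterozygous hearts (SD, n = 3), against 17.2 ± 3.80 CPM in WT hearts (SD, n = 2). The log2 fold changes, 0.70 (SE 0.16, adjusted p = 0.00881) and 0.75 (SE 0.16, adjusted p = 0.00631), passed in all 8 fits that left out 1 library, with values of 0.53 to 0.95 and 0.58 to 1.004.

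Slc25a45 (chromosome 19, 5877808 to 5885878), placed by sequence among the amino acid and carnitine carriers, was at 5.71, 6.10 and 5.22 CPM in homozygous and 5.99, 5.98 and 5.92 CPM in heterozygous hearts, against 8.21 and 11.2 CPM in WT hearts. Every deletion library was below both WT libraries. The log2 changes, -0.77 in homozygous (SE 0.21, adjusted p = 0.0203) and -0.70 in heterozygous hearts (SE 0.21, adjusted p = 0.0302), both passed. The homozygous call was lost without homozygous 1 (-0.77, adjusted p = 0.0560), homozygous 3 (-0.71, adjusted p = 0.0736) or wild type 2 (-0.50, adjusted p = 0.210), and with the replicate block (-0.73, adjusted p = 0.0513). The heterozygous call was lost in 5 of the 8 fits that left out 1 library: those without heterozygous 1, 2 or 3, homozygous 2 or wild type 2 (adjusted p = 0.0504 to 0.278, with -0.43 without wild type 2).

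Slc25a20, the carnitine-acylcarnitine carrier, was at 181, 150 and 169 CPM in homozygous and 143, 133 and 139 CPM in heterozygous hearts, against 148 and 114 CPM in WT hearts. All homozygous libraries were above both WT libraries, though narrowly, and the heterozygous ones overlapped with them. It changed by 0.35 in homozygous (SE 0.14, adjusted p = 0.0948) and by 0.08 in heterozygous hearts (SE 0.14, adjusted p = 0.722) on the log2 scale. The homozygous value passed without wild type 1 (0.56, adjusted p = 0.0106) and was 0.20 without wild type 2. The ornithine carrier Slc25a15 had all deletion libraries above both WT libraries (18.1 to 22.1 CPM in homozygous and 18.5 to 20.6 CPM in heterozygous hearts, against 12.6 and 16.5 CPM in WT) and log2 fold changes of 0.43 and 0.40 that did not pass. Both passed without wild type 1 (0.65 and 0.62, adjusted p = 0.0211 and 0.0265) and were 0.28 and 0.25 without wild type 2. The glycine carrier Slc25a38 was at 0.25 and 0.04, Slc25a29, for basic amino acids, at 0.16 and 0.06, and Slc25a47, best known from liver, at -0.54 and -0.51 in log2 fold change, homozygous and heterozygous. Slc25a2, an ornithine carrier with 0 to 16 counts a library, had log2 fold changes of 0.54 and -0.62 with an SE of 1.14 and 1.21, and Slc25a48 had 4 counts in wild type 1 and none in any other library.

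Of the 9 carriers of nucleotides and cofactors tested, 4 rose in homozygous and 3 in heterozygous hearts, against 15.3% and 15.2% of all genes. None passed as lower, against 12.4% and 12.8% of all genes. The median log2 fold change of these 9 was 0.43 in homozygous and 0.15 in heterozygous hearts. Slc25a16 (chromosome 10, 62920633 to 62946498), whose yeast relative is needed for coenzyme A in mitochondria, was at 39.7, 47.02 and 48.5 CPM in homozygous and 51.3, 46.3 and 49.3 CPM in heterozygous hearts, against 18.9 and 16.3 CPM in WT hearts. The groups were far apart and the WT libraries close to each other. Means were 45.1 ± 4.73 CPM in homozygous (SD, n = 3) and 49.0 ± 2.53 CPM in heterozygous hearts (SD, n = 3), against 17.6 ± 1.84 CPM in WT hearts (SD, n = 2). That is 2.56-fold in homozygous (log2 1.36, SE 0.14, adjusted p = 0.000283) and 2.78-fold in heterozygous hearts (log2 1.47, SE 0.14, adjusted p = 0.000176), and both passed in all 8 fits that left out 1 library. Slc25a42, which carries coenzyme A, was at 104, 90.8 and 104 CPM in homozygous and 85.0, 69.9 and 91.7 CPM in heterozygous hearts, against 92.7 and 55.4 CPM in WT hearts. It overlapped between genotypes and did not pass (0.43 and 0.15, adjusted p = 0.144 and 0.614), but its homozygous value without wild type 1 was 0.85 (adjusted p = 0.00257) and its heterozygous one 0.57 (adjusted p = 0.0201).

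Slc25a51 (chromosome 4, 45395923 to 45408766), known from human cells as the carrier of NAD into mitochondria, was at 106, 115 and 112 CPM in homozygous and 96.2, 97.0 and 117 CPM in heterozygous hearts, against 63.3 and 52.95 CPM in WT hearts. No WT library came near the deletion libraries. Means were 111 ± 4.72 CPM in homozygous (SD, n = 3) and 103 ± 11.9 CPM in heterozygous hearts (SD, n = 3), against 58.1 ± 7.32 CPM in WT hearts (SD, n = 2). The rises were 1.91-fold (log2 0.93, SE 0.14, adjusted p = 0.00124) and 1.78-fold (log2 0.83, SE 0.14, adjusted p = 0.00197), and they passed in all 8 fits that left out 1 library.

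Slc25a32 (chromosome 15, 39091231 to 39112716), linked to folate and FAD in mitochondria, was at 18.5, 17.1 and 18.1 CPM in homozygous and 21.9, 16.9 and 14.2 CPM in heterozygous hearts, against 9.99 and 6.97 CPM in WT hearts. Every deletion library was above both WT libraries. The rises were 2.11-fold (log2 1.08, SE 0.22, adjusted p = 0.00649) and 2.08-fold (log2 1.06, SE 0.22, adjusted p = 0.00676), and they passed in all 8 fits that left out 1 library (adjusted p up to 0.0360 and 0.0380). With the gene-property correction, which takes out trends with GC content and with the lengths of transcript and 3' UTR in each library, the values were 0.46 and 0.41 and did not pass (adjusted p = 0.168 and 0.219). Slc25a36 (chromosome 9, 97074961 to 97111157), a carrier of pyrimidine nucleotides, was at 57.6, 54.9 and 63.6 CPM in homozygous and 43.1, 54.3 and 51.7 CPM in heterozygous hearts, against 32.5 and 45.7 CPM in WT hearts. Only the homozygous libraries were all above WT, with a rise of 0.58 on the log2 scale (SE 0.17, adjusted p = 0.0248), against 0.35 in heterozygous hearts (SE 0.17, adjusted p = 0.144). The direct comparison of homozygous with heterozygous hearts gave 0.24 with an unadjusted p of 0.130, so the genotypes were not shown to differ. Leaving out homozygous 1 (0.60, adjusted p = 0.0582), homozygous 3 (0.52, adjusted p = 0.0857) or wild type 1 (0.37, adjusted p = 0.0915) ended the homozygous call. Without wild type 2 both genotypes passed (0.88 and 0.64, adjusted p = 0.00598 and 0.0236), and with the correction neither did (-0.03 and -0.31).

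Slc25a33, the other pyrimidine nucleotide carrier, did not pass in the main edgeR fit. It was at 56.7, 61.3 and 74.9 CPM in homozygous and 36.7, 64.2 and 57.3 CPM in heterozygous hearts, against 98.5 and 70.2 CPM in WT hearts. The homozygous range overlapped WT and the heterozygous one did not (log2 fold changes -0.39 and -0.68, adjusted p = 0.240 and 0.0540). DESeq2 called the heterozygous fall (-0.67, adjusted p = 0.0217), and with the gene-property correction the values were -0.07 and -0.34. The S-adenosylmethionine carrier Slc25a26 was at 0.21 and 0.04; its homozygous value passed without wild type 1 (0.51, adjusted p = 0.0330) and was 0.01 without wild type 2. Slc25a17, a peroxisomal carrier of coenzyme A and related cofactors, was at -0.07 and -0.04 in log2 fold change.

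Of the iron and glutathione carriers, Slc25a28 fell. Slc25a28 (chromosome 19, 43663801 to 43674881), mitoferrin of non-erythroid cells, was at 29.8, 27.2 and 35.2 CPM in homozygous and 32.8, 26.2 and 25.99 CPM in heterozygous hearts, against 38.6 and 60.3 CPM in WT hearts. Every deletion library was below both WT libraries, and the lower WT library was close to the highest homozygous one. On the log2 scale it fell by 0.69 in homozygous (SE 0.20, adjusted p = 0.0257) and by 0.81 in heterozygous hearts (SE 0.20, adjusted p = 0.0129). The homozygous call was lost without homozygous 1 (-0.67, adjusted p = 0.0763), homozygous 2 (-0.61, adjusted p = 0.0875) or wild type 2 (-0.30, adjusted p = 0.330), and with the replicate block (-0.71, adjusted p = 0.0604). In heterozygous hearts it was lost without heterozygous 2 (-0.75, adjusted p = 0.0534), heterozygous 3 (-0.74, adjusted p = 0.0510) or wild type 2 (-0.42, adjusted p = 0.160).

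Slc25a37, mitoferrin of erythroid cells, was at 23.9, 28.4 and 28.1 CPM in homozygous and 27.5, 33.7 and 30.9 CPM in heterozygous hearts, against 28.8 and 39.2 CPM in WT hearts, and did not pass (-0.34 and -0.14); the homozygous value passed without wild type 1 (-0.54, adjusted p = 0.0243) and was -0.07 without wild type 2. All homozygous libraries were below WT, and the heterozygous ones overlapped with it. The erythroid markers Hba-a1, Hba-a2, Hbb-bs and Hbb-bt were listed at 0 in all 8 libraries, and the 7 erythroid markers summed to 12.6 to 55.4 CPM in homozygous and 31.6 to 55.9 CPM in heterozygous hearts, against 24.9 and 43.8 CPM in WT hearts. Slc25a39 and Slc25a40 are both tied to mitochondrial glutathione. Slc25a39 was at 127, 109 and 113 CPM in homozygous and 123, 103 and 127 CPM in heterozygous hearts, against 129 and 171 CPM in WT hearts. The deletion libraries of Slc25a39 were all below WT, with log2 fold changes of -0.37 and -0.35 (adjusted p = 0.0963 and 0.106). Both values of Slc25a39 passed without wild type 1 (-0.55 and -0.54, adjusted p = 0.0132 and 0.0148), were -0.12 and -0.11 without wild type 2, and turned to 0.16 and 0.19 with the gene-property correction. Slc25a40 was at 0.44 and 0.33 (adjusted p = 0.0928 and 0.203). It passed in homozygous hearts without wild type 1 (0.65, adjusted p = 0.0282), was at 0.30 and 0.18 without wild type 2, and at 0.08 and -0.08 with the correction.

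Among the uncoupling-like members, Slc25a30 passed in heterozygous hearts. Slc25a30 (chromosome 14, 75760117 to 75787037), first described in kidney, was at 9.16, 7.82 and 9.12 CPM in homozygous and 14.3, 9.17 and 8.004 CPM in heterozygous hearts, against 6.21 and 4.23 CPM in WT hearts. All deletion libraries were above WT, and heterozygous 1 was well above the rest. It changed by 0.74 on the log2 scale in homozygous hearts (SE 0.28, adjusted p = 0.0764) and by 1.0 in heterozygous hearts (SE 0.29, adjusted p = 0.0248). Leaving out heterozygous 1 (0.75, adjusted p = 0.0552) or wild type 2 (0.78, adjusted p = 0.137) ended the heterozygous call. The homozygous value passed with DESeq2 (0.74, adjusted p = 0.0431) and with a replicate block in edgeR (0.83, adjusted p = 0.0466). When wild type 1 was left out, the homozygous value was 1.05. Slc25a14 was at 0.03 and 0.07, and Slc25a27 at -0.38 and -0.60 (adjusted p = 0.187 and 0.0511) in log2 fold change. DESeq2 called Slc25a27 lower in heterozygous hearts (-0.59, adjusted p = 0.0376), and so did edgeR without wild type 1 (-0.79, adjusted p = 0.0148).

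In the last group, Slc25a46, an outer membrane member of the family that takes part in mitochondrial dynamics, rose in both deletion genotypes. The gene lies on chromosome 18 (31556111 to 31609911). It was at 120, 143 and 141 CPM in homozygous and 155, 126 and 138 CPM in heterozygous hearts, against 76.6 and 61.3 CPM in WT hearts. No deletion library came near a WT library. Means were 135 ± 12.6 CPM in homozygous (SD, n = 3) and 140 ± 14.6 CPM in heterozygous hearts (SD, n = 3), against 68.9 ± 10.8 CPM in WT hearts (SD, n = 2), which is 1.96-fold (log2 0.97, SE 0.15, adjusted p = 0.00162) and 2.03-fold (log2 1.02, SE 0.15, adjusted p = 0.00117). Both calls held in all 8 fits that left out 1 library.

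Slc25a34, the member of this group with the highest level, was at 373, 353 and 435 CPM in homozygous and 432, 299 and 375 CPM in heterozygous hearts, against 308 and 193 CPM in WT hearts. Only the homozygous libraries were all above WT, and it changed on the log2 scale by 0.63 (SE 0.22, adjusted p = 0.0543) and by 0.56 (SE 0.22, adjusted p = 0.0806). Without wild type 1 both passed (1.01 and 0.94, adjusted p = 0.00317 and 0.00474), and without wild type 2 neither did (0.36 and 0.29, adjusted p = 0.272 and 0.378). Both passed with DESeq2 (adjusted p = 0.0139 and 0.0318) and with a term for sex (adjusted p = 0.0222 and 0.0154). The homozygous value also passed with limma-voom (adjusted p = 0.0379), no filter on low counts (adjusted p = 0.0388), the replicate block (adjusted p = 0.0389) and without heterozygous 1 (adjusted p = 0.0429). Slc25a35 (0.19 and 0.10), which shares 31.3% of its exonic bases with Rangrf on the opposite strand and so has uncertain counts, and Slc25a53 (0.27 and 0.65) did not pass. Slc25a43 had no count in either WT library and 2 to 20 counts in each deletion library. A floor of 3 counts over the WT group is 0.0548 CPM. The means of Slc25a43, 0.287 CPM in homozygous and 0.340 CPM in heterozygous hearts, were 5.24 and 6.21 times this floor. Homozygous 1 (0.0611 CPM) and heterozygous 3 (0.0684 CPM) were close to the floor, so these ratios are not lower bounds. Slc25a43 did not pass edgeR's test (adjusted p = 0.0701 and 0.0604). With Slc25a43 at these ratios the members' medians stayed 0.15 and 0.06.

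**Figure D3:**
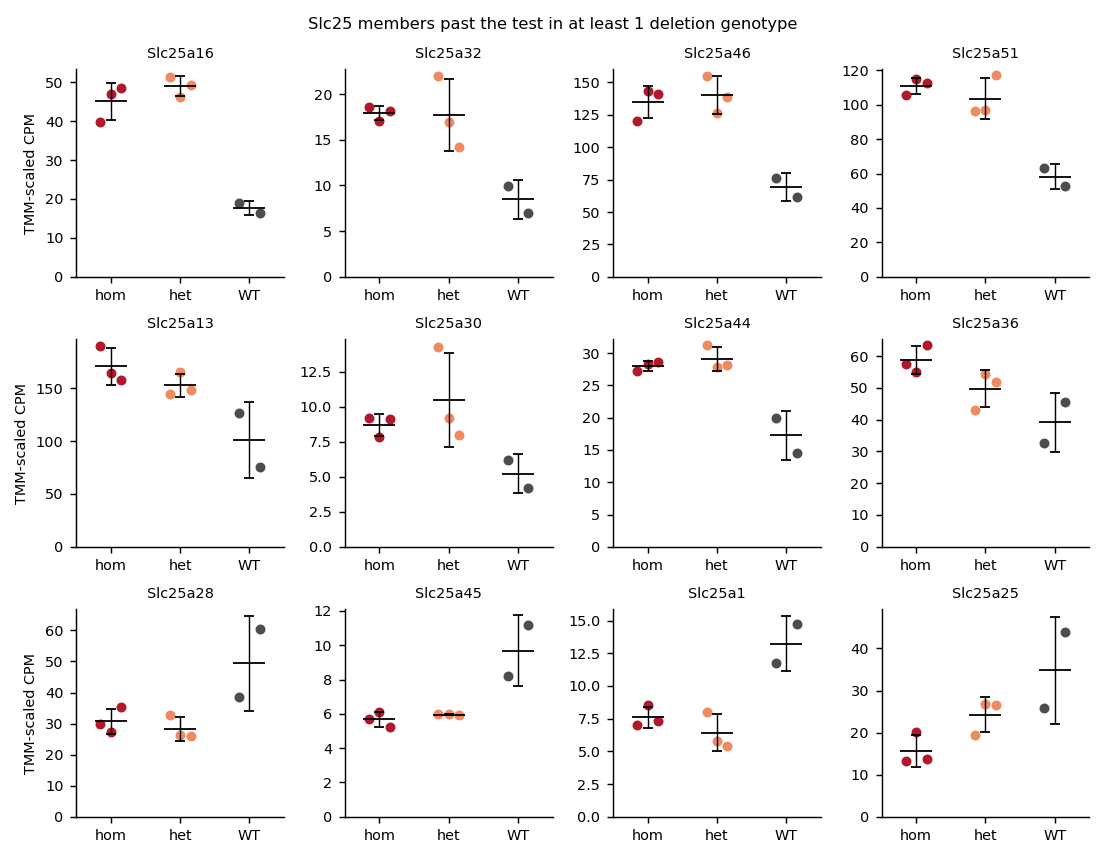
TMM-scaled CPM of the 12 members that passed in at least 1 deletion genotype; each point is 1 heart (hom, homozygous; het, heterozygous; WT, wild type), long ticks are means and bars SDs. In Slc25a16 the homozygous hearts lie at 39.7 to 48.5 and the heterozygous ones at 46.3 to 51.3, above the WT hearts at 16.3 and 18.9.

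The deletion genotypes were not shown to differ from each other in any member. Homozygous against heterozygous, edgeR called 0 of 43 members higher and 0 lower, against 0.0% and 0.0% of all 15075 genes. At an unadjusted p under 0.05 there were 2 members, Slc25a25 and Slc25a10, against 2.73% of all genes. DESeq2 and limma-voom also called 0 members.

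Whether a member rose or fell went with the length and base composition of its transcript, as it did for genes in general. The 7 members that rose in homozygous hearts had longest transcripts of 3121 to 5905 bases, 3' UTRs of 927 to 4739 bases (median 3023) and 40.7 to 53.4% GC. The 4 that fell had transcripts of 1535 to 3529 bases, 3' UTRs of 325 to 1651 bases (median 856) and 53.8 to 60.9% GC. For the 13910 tested genes with these properties the median 3' UTR was 1136 bases and the median GC content 50.4%. Across the 43 members, Spearman's rho between the log2 fold change and 3' UTR length was 0.37 in homozygous and 0.49 in heterozygous hearts, and with GC content it was -0.43 and -0.55. Across the 13910 genes the same values were 0.41 and 0.40, and -0.44 and -0.48. Genes are not independent replicates, and all points share the same libraries. The trend with 3' UTR length across genes was smaller, but of the same sign, without wild type 2 (rho 0.35 and 0.33), and that with GC content was then -0.44 and -0.46.

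**Figure D4:**
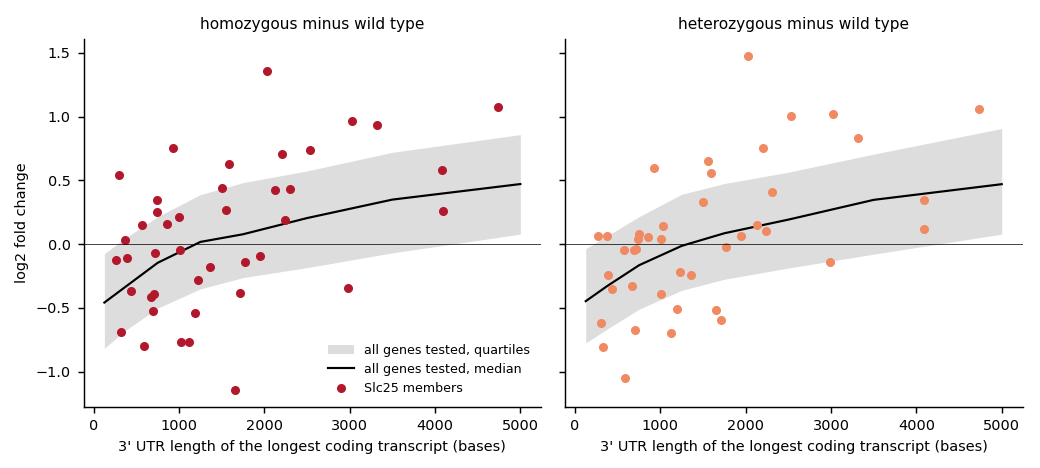
Log2 fold change of 42 Slc25 members (points; Slc25a43 left out) against 3' UTR length, in homozygous (left) and heterozygous (right) against wild type; the line and the grey band are the median and quartiles of all tested genes in bins of 3' UTR length. The gene median runs from -0.46 in the shortest bin to 0.47 in the longest in homozygous hearts, and members scatter around it.

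With this trend taken out in each library by splines of GC content and of the lengths of the transcript and its 3' UTR, 9 of 43 members were higher in homozygous hearts (20.9%, against 8.39% of 13910 genes) and 1 was lower (2.33%, against 5.69%). In heterozygous hearts 5 were higher (11.6%, against 7.79%) and 0 lower (0.0%, against 5.59%) by edgeR's test. At an unadjusted p under 0.05, a looser threshold than that of these shares, 3 members were lower. Slc25a16, Slc25a44, Slc25a46 and Slc25a51 passed in both genotypes before and after the correction. Their corrected log2 fold changes in homozygous and heterozygous hearts were 1.09 and 1.17 for Slc25a16 (adjusted p = 0.00132 and 0.000986), and 0.79 and 0.87 for Slc25a44 (adjusted p = 0.00951 and 0.00718). They were 0.46 and 0.48 for Slc25a46 (adjusted p = 0.0383 and 0.0349), and 0.70 and 0.59 for Slc25a51 (adjusted p = 0.00724 and 0.0141). Slc25a13 (0.66, adjusted p = 0.0322) and Slc25a25 (-1.04, adjusted p = 0.0261) passed in homozygous hearts; the heterozygous value of Slc25a13 did not (0.49, adjusted p = 0.0910).

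The correction also brought in members that had not passed before it. Slc25a34 was called in homozygous and heterozygous hearts (0.94 and 0.91, adjusted p = 0.0209 and 0.0256). Slc25a11 (0.52, adjusted p = 0.0207), Slc25a20 (0.53, adjusted p = 0.0284) and Slc25a38 (0.64, adjusted p = 0.0249) were called in homozygous hearts. These are the oxoglutarate, carnitine-acylcarnitine and glycine carriers. Other calls no longer passed, and their corrected values differed in size. In homozygous and heterozygous hearts Slc25a28 was at -0.11 and -0.22, Slc25a1 at -0.31 and -0.54, Slc25a45 at -0.55 and -0.45 and Slc25a32 at 0.46 and 0.41. Slc25a30 was at 0.74 in heterozygous hearts (adjusted p = 0.105). Slc25a36 was then at -0.03 in homozygous hearts. Slc25a4 was at -0.17 and -0.08 and did not pass.

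**Figure D5:**
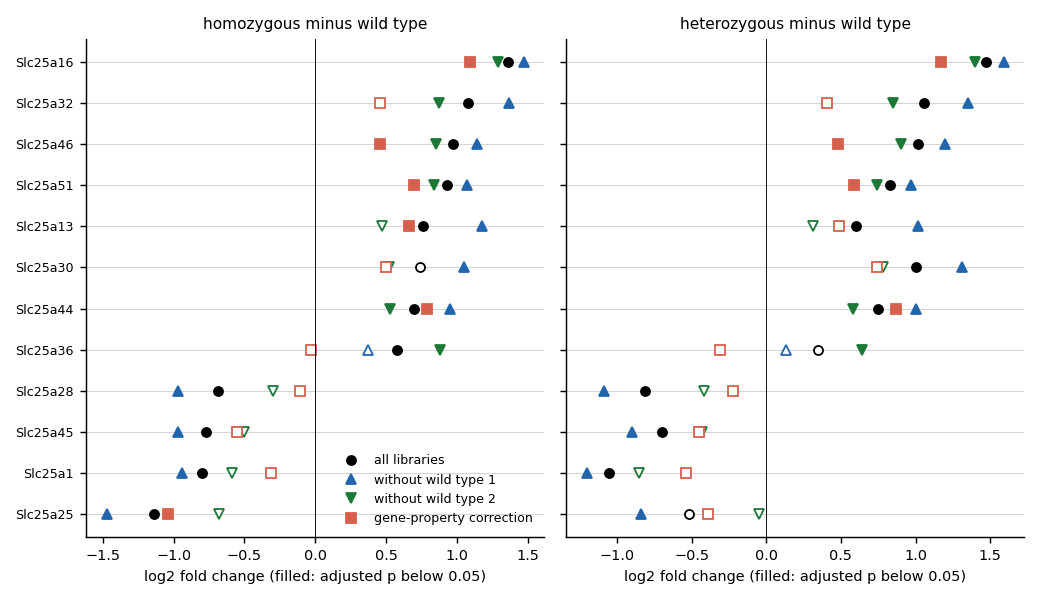
Log2 fold change of the 12 called members with all libraries, without wild type 1, without wild type 2 and after the gene-property correction, in homozygous (left) and heterozygous (right) against wild type; filled symbols passed at an adjusted p below 0.05. Slc25a16 stays between 1.09 and 1.47 in homozygous hearts, and Slc25a36 is at -0.03 after the correction.

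Without wild type 2, the fit has 1 WT library and its spread comes from the deletion hearts alone. Then 6 of 43 members were higher in homozygous hearts (against 10.1% of 15573 genes) and 0 lower (against 3.58% of genes called). In heterozygous hearts 6 were higher (against 10.5%) and 0 lower (against 4.62%). At an unadjusted p under 0.05, a looser threshold than that of these shares, 2 members were lower in homozygous and 3 in heterozygous hearts. The share of all genes at that looser threshold is not given here, so these 2 and 3 cannot be set against it. The 6 higher members in each case were Slc25a16, Slc25a32, Slc25a36, Slc25a44, Slc25a46 and Slc25a51. With wild type 2 left out and the correction applied together, Slc25a16, Slc25a44 and Slc25a51 stayed called in homozygous hearts, and Slc25a16 and Slc25a44 in heterozygous hearts.

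Family members that carry other symbols are not among the 47. Mtch1, an outer membrane protein of this family, was at 159, 161 and 147 CPM in homozygous and 170, 162 and 167 CPM in heterozygous hearts, against 222 and 273 CPM in WT hearts. It was lower in every deletion library, with log2 fold changes of -0.67 and -0.58 (adjusted p = 0.00395 and 0.00745), which were -0.20 and -0.07 after the correction and did not pass. The heterozygous value also missed the threshold without wild type 2 (-0.39, adjusted p = 0.0554). Ucp2, an uncoupling protein homologue, fell in homozygous hearts (141, 138 and 155 CPM, against 247 and 187 CPM in WT hearts; log2 fold change -0.59, adjusted p = 0.0399); it did not pass in heterozygous hearts (-0.29), after the correction (-0.49, adjusted p = 0.115) or without wild type 1 (-0.36, adjusted p = 0.193). Ucp3 and Mtch2 did not pass, and Ucp1, the uncoupling protein of brown fat, had too few counts to be tested.

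Other mitochondrial transport genes also moved in both directions. Of 41 tested, 5 rose and 3 fell in homozygous hearts (median log2 fold change -0.06), and 2 rose and 6 fell in heterozygous hearts (median -0.15). Over all tested genes, 15.3% rose and 12.4% fell in homozygous hearts, and 15.2% rose and 12.8% fell in heterozygous hearts. Of the 6 enzymes tested of the malate-aspartate and glycerophosphate shuttles, only Mdh1 rose, and 1 other fell in heterozygous hearts. The median log2 fold change of these 6 was 0.17 in homozygous and 0.06 in heterozygous hearts. Vdac1, the main outer membrane channel, rose in homozygous hearts (0.57, adjusted p = 0.0282; 0.36, adjusted p = 0.119 without wild type 2). Mdh1, the cytosolic enzyme of the malate-aspartate shuttle, rose in both (0.48 and 0.55, adjusted p = 0.0411 and 0.0246) but passed in neither without wild type 2 (0.38 and 0.44, adjusted p = 0.148 and 0.0905).

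Smdt1, a subunit of the calcium uniporter, fell in both deletion genotypes (-0.88 and -0.96, adjusted p = 0.00311 and 0.0019), and so did Tspo, an outer membrane protein (-1.06 and -0.92, adjusted p = 0.00454 and 0.00824). Neither passed after the correction: Smdt1 was at -0.15 and -0.23, and Tspo at -0.35 and -0.21. Without wild type 2 they were at -0.53 and -0.61 for Smdt1, which passed, and at -0.62 and -0.48 for Tspo, of which the heterozygous value did not pass (adjusted p = 0.0937). Timm10b, a small chaperone of the complex that inserts carriers into the inner membrane, fell in both (-0.75 and -0.81, adjusted p = 0.00494 and 0.00331) and kept its values after the correction (-0.84 and -0.91, adjusted p = 0.00744 and 0.00574). The pyruvate carrier genes Mpc1 (0.27 and 0.47) and Mpc2 (-0.13 and -0.20) did not pass.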

How the data were processed

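TruSeq libraries of RNA from 8 hearts were sequenced on an Illumina instrument, per the labels' protocols. The authors deposited raw counts per gene symbol, not normalized, with a column for each heart. The tools named in the submitters' processing notes are featureCounts, Subread, HISAT2, Trimmomatic 0.36 and DESeq2, and the build is mm10. The annotation, the strand setting and how multi-mapping reads were treated: not given in the sources used here. Positions, lengths and GC content came from GENCODE vM21 (mm10), which held 96.9% of the symbols and all 47 members, and promoters from RefSeq (GRCm38.p6).

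Genes kept by filterByExpr were scaled by TMM and fitted in edgeR 4.0.16 (R 4.3.3) with a robust quasi-likelihood model of all 8 libraries, since WT has only 2. Tests are two-sided, with Benjamini-Hochberg adjustment over 15075 genes and a threshold of 0.05; fold changes are log2 with the SE of the fit. The method was tested on simulated counts. These held no outlying library and no trend with GC content or length, so that test cannot speak to either feature. Alternatives were DESeq2 1.42.0, limma-voom (limma 3.58.1), other scalings and filters, a sex term, a replicate block, each library left out, and an offset per library from splines (4 df each) of GC content and of the lengths of the longest coding transcript and its 3' UTR, for the 13910 tested genes with all 3. Same-numbered libraries did not deviate together in every pair (r = -0.02 to 0.18), so the numbers were not taken as pairs. The 2 WT libraries deviate as mirror images (r = -1), so pairs with WT say little. Libraries numbered 1 were all low in Xist (1.74 to 6.22 CPM), and those numbered 2 all high (567 to 1010 CPM). The number, and with it the replicate block, is thus partly tied to sex.

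Text names every member past the threshold against WT and the 5 highest per kb with values per library. Members, lists and the correction were chosen with earlier results of these data known. The labels say only that the hearts share a litter, so p-values measure the spread between these samples, which may be technical. A floor of 3 counts covers counting error only. Values of 1 member and of 1 other transport gene are not reported here, though both are in the counts and medians of their lists.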

Additional observations from a re-analysis of the deposited data

How the results depend on the processing

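Counts of called members moved most with the WT libraries, and counts over all genes moved with those libraries too. Of all 15075 genes, 2308 rose and 1872 fell in homozygous hearts with all 8 libraries. Without homozygous 1 the counts were 1736 and 1092 of 15010, and without homozygous 3 they were 1573 and 991 of 15013. In heterozygous hearts 2295 rose and 1924 fell, and 1789 and 1177 of 15033 did without heterozygous 3. Over the 8 fits that left out 1 library, 5 to 13 members were higher and 0 to 7 lower in homozygous hearts, 5 to 10 higher and 0 to 7 lower in heterozygous hearts, and 0 differed between them. The lower calls numbered 0 in both genotypes without wild type 2 and 7 in both without wild type 1; in homozygous hearts they were 1 without homozygous 1 and 2 without homozygous 3, and in heterozygous hearts 1 without heterozygous 3. Higher calls in homozygous hearts were 13 without wild type 1.

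With the replicate block, which pairs libraries by label number only, 9 members were higher and 1 lower in homozygous hearts and 7 and 2 in heterozygous hearts; it ended the calls of Slc25a1, Slc25a28 and Slc25a45 in homozygous and of Slc25a45 in heterozygous hearts (-0.66, adjusted p = 0.0739), brought in Slc25a30 and Slc25a34 in homozygous hearts and changed no other call of a member. A fit of only the genotypes compared gave 2 lower members in homozygous hearts, and lost Slc25a28 and Slc25a45 there and Slc25a13, Slc25a30 and Slc25a45 in heterozygous hearts. DESeq2 and the filter at 1 CPM in 3 libraries gave 5 lower members each in heterozygous hearts, against 3; with DESeq2 the added ones were Slc25a27 and Slc25a33. Higher members in homozygous hearts were 9 with DESeq2, 9 with the sex term, 8 with limma-voom and 8 with no filter, against 7. The gene-property correction gave 1 lower in homozygous and 0 lower in heterozygous hearts; with wild type 2 also left out, 3 and 2 members were higher and 0 and 0 lower. All 11 and 10 calls were kept with DESeq2, DESeq2 size factors, limma-voom, no filter, the 1 CPM filter, the sex term and a fit without robust weighting; total counts in place of TMM lost Slc25a13 in heterozygous hearts. For all 15075 genes, the replicate block gave 1975 higher and 1353 lower in homozygous hearts and 1977 and 1399 in heterozygous hearts. Fitting only the genotypes compared gave 2000 and 1354 of 14849 genes, and 1571 and 1097 of 14784. DESeq2 called 2613 and 2164 of 14274 genes in homozygous and 2609 and 2199 of 14637 in heterozygous hearts. The 1 CPM filter gave 2287 and 2038 of 13290 in heterozygous hearts. The causes were not tested.

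After the correction the sign changed for 9 of 43 members in homozygous and 12 of 43 in heterozygous hearts; of these only Slc25a36 in homozygous hearts (-0.034) had been called. Among the 5 members with the highest levels it changed in homozygous hearts for Slc25a3 (0.069) and Slc25a5 (0.143) and in heterozygous hearts for Slc25a11 (0.337). Elsewhere, Slc25a12 went to -0.18 and -0.32, Slc25a10 to 0.37 and 0.07, Slc25a22 to 0.12 and 0.09 and Slc25a23 to 0.07 and 0.22 in homozygous and heterozygous hearts, and Slc25a36 to -0.31 and Slc25a24 to -0.31 in heterozygous hearts. With wild type 2 also left out, among the called members and those 5, it changed in homozygous hearts for Slc25a4 (0.141), Slc25a5 (0.114) and Slc25a28 (0.162), and in heterozygous hearts for Slc25a4 (0.219), Slc25a11 (0.258) and Slc25a28 (0.055). Leaving out 1 library gave heterozygous ranges of -0.568 to 0.003 for Slc25a4, -0.006 to 0.180 for Slc25a5 and -0.087 to 0.014 for Slc25a11.

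WT has 2 libraries, so the spread shared by all groups rests mostly on the deletion hearts. The 4 tested members with a mean under 1 CPM had an SE of 0.71 or more, so small differences there were not detectable at this depth.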
